A study of Rattus norvegicus with 6 samples.

Results

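Collagens are matrix proteins built from chains that wind around one another in groups of 3, and each chain has a gene of its own. Fibrillar collagens carry the tensile load of a vessel wall. Type IV collagen forms the sheet-like network of the basement membrane on which endothelial cells rest and which surrounds smooth muscle cells and cardiac myocytes. The fibril-associated collagens (FACIT) sit on the surface of fibrils and space them, and the remaining types form beaded filaments, hexagonal lattices, anchoring fibrils or membrane-bound proteins. Before a chain leaves the cell its prolines and lysines are hydroxylated and a chaperone assists its folding, and outside the cell its end pieces are trimmed and lysyl oxidases cross-link the fibrils.

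The collagen gene family was read from a table of 17833 genes, of which 44 had a symbol made of Col, a number, the letter a and a number, and a mean above 0 over the 6 libraries. By class, 11 were fibrillar, 8 belonged to the basement membrane, 9 were FACIT and 16 were of other types. Bulk RNA-seq had been performed on pulmonary veins (PVs) of 3 Sprague-Dawley rats that underwent bilateral pulmonary vein banding (BPVB), a constriction placed on the veins, and of 3 rats that had the same operation without the constriction (sham). All rats were wild type, were operated on at postnatal day 1 and were killed at postnatal day 21, and the PVs were those of the right upper lung lobe. Each library was 1 rat, drawn at random from the operated animals, and the tissue was taken whole, so that wall, attached heart muscle, nerve, fat and lung could all contribute. Sex was not given in the labels, and litter and operation day were not given either. The question asked of these data was how the collagen transcripts of a constricted vein differ from those of a sham-operated one.

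Expression was given as FPKM, the fragments of a gene divided by its length and by the fragments of the library, so that levels can be set side by side between genes. Library totals were between 23439506 and 29725808 fragments, and collagen genes took a share of 3.71% to 3.75% of the fragments after BPVB, beside 3.15% to 3.18% after sham surgery. Changes were tested with limma on log2(FPKM + 0.5) over the 15150 genes whose FPKM averaged 0.1 or more, with Benjamini-Hochberg adjustment over all of them. The added 0.5 understates the change of weakly expressed genes. Values are means ± SD of 3 rats, and an error after a log2 fold change is its standard error.

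The markers of several cell types differed between the groups, where 17.2% of all genes tested were higher and 14.3% were lower in BPVB. Of 10 alveolar epithelial markers 9 rose and 1, Hopx, fell, and their summed FPKM was 646 to 701 in BPVB and 133 to 138 in sham. Of 6 airway markers only Scgb1a1 was abundant enough to test and it rose (sums 24.0 to 28.0 against 3.27 to 4.81), while Krt5, Krt14, Foxj1 and Scgb3a2 were at 0 in all BPVB libraries and Trp63 was not among the genes listed. All 5 macrophage markers rose (68.6 to 77.9 against 47.7 to 49.9), as did 3 of 4 adipocyte markers (26.6 to 28.6 against 7.16 to 10.9). The 8 cardiac myocyte markers split into 4 that rose and 4 that fell, with lower sums in BPVB (11638 to 12053 against 16331 to 16679), and of 4 skeletal muscle markers tested Acta1 rose and Ckm fell (508 to 531 against 715 to 726). Of 5 smooth muscle markers Des rose and 4 fell (4349 to 4390 against 4549 to 4617), 3 of 4 endothelial markers fell (837 to 851 against 928 to 935), and of 6 fibroblast markers 2 rose and 2 fell (1832 to 1879 against 1922 to 1953). Of 3 mesothelial markers tested 2 fell (1.24 to 1.58 against 2.76 to 4.16). In whole tissue, fewer cells of a type and less RNA per cell cannot be told apart, and the part of these shifts in the collagen values was not tested except where a value is given.

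Summed collagen FPKM was higher in every banded vein than in any sham vein. The 44 genes summed to 7141, 7070.1 and 7156 in the 3 BPVB rats and to 5997, 6049 and 5982 in the 3 sham rats. The means were in a ratio of 1.19 (two-sided exact permutation p = 0.1, below which 3 against 3 libraries cannot go). Of the 41 collagen genes tested, 18 were higher in BPVB (43.9%), 8 were lower (19.5%) and 15 did not pass the threshold of 0.05 on the adjusted p. Among all genes tested, 17.2% were higher and 14.3% were lower, 31.5% in all. The balance over all genes depended on the scaling, with 2605 higher and 2170 lower as deposited, 2362 and 2454 under median of ratios scaling, 2354 and 2434 with quantile normalization and 3000 and 1888 under TPM scaling. For the collagen genes these alternatives gave 16 and 9, 19 and 9, and 19 and 8. The median log2 fold change was 0.09 over the collagen genes and 0.02 over all genes. The levels of 34 of the 41 collagen genes did not overlap between the groups, beside 45.6% of all genes. The count depends on the level of the genes. Where FPKM averaged 1 or more, 16 of 27 collagen genes were higher, 5 were lower and 24 did not overlap, beside 18.9%, 16.4% and 49.3% of all genes at that level, of which 35.2% were called. Where it averaged 10 or more, 13 of 19 collagen genes were higher, 3 were lower and none of the 19 overlapped, beside 22.2%, 22.8% and 57.3% of all genes, of which 45% were called. Only Col12a1, Col13a1 and Col6a5 also passed a log2 fold change of 1, and no collagen gene passed it downward, where 2.24% of all genes passed upward and 1.03% downward. These last counts were from 0 to 5 upward and from 0 to 4 downward under other settings.

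**Figure D1:**
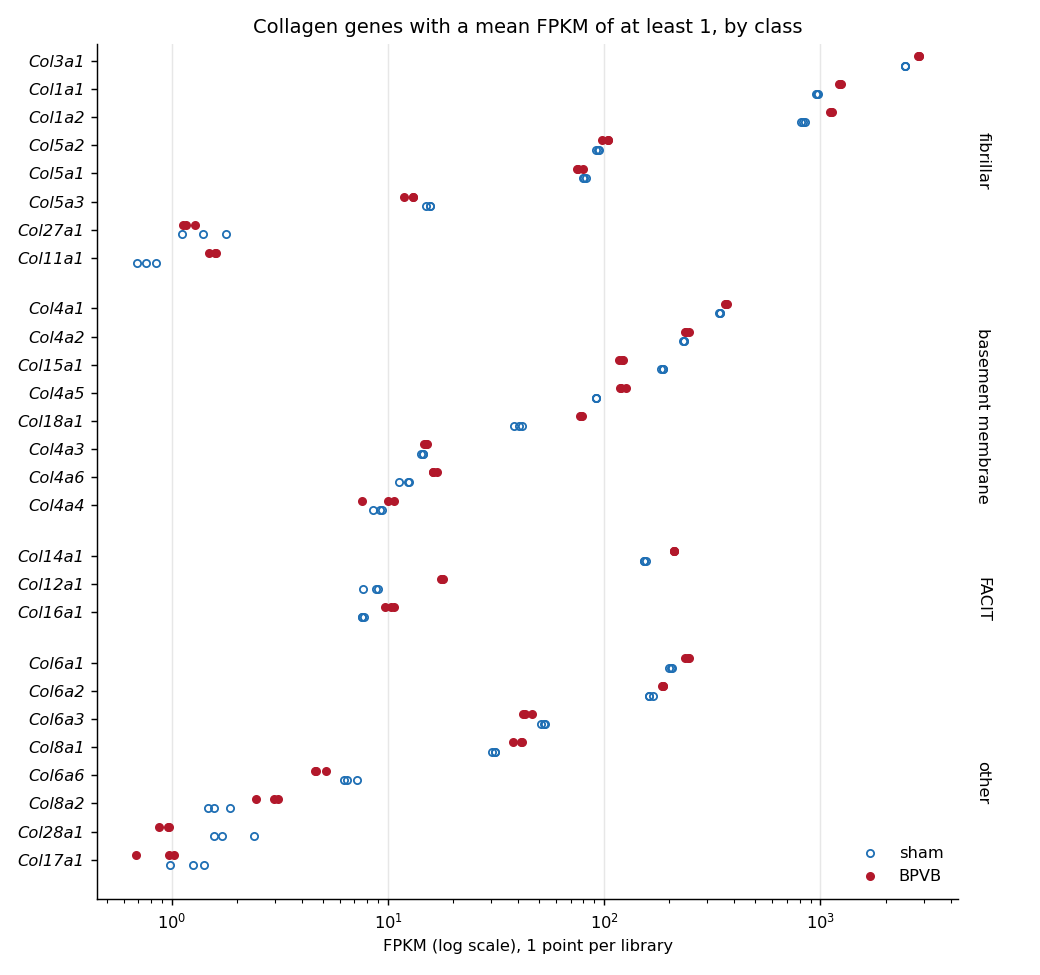
FPKM of the 27 collagen genes with a mean of at least 1, 1 point per library on a log axis, with filled points for BPVB and open points for sham, grouped by class. The points of a group lie close together, and 24 of the 27 genes show no overlap between groups, with Col3a1 highest and Col18a1 and Col15a1 displaced in opposite directions.

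The fibrillar chains of type I and type III made up most of the collagen transcript. Col3a1, the only chain of type III collagen, was the most abundant of the family and the gene of rank 10 among all genes by mean FPKM. Its level was 2851, 2828 and 2858 in BPVB and 2457, 2469.9 and 2448 in sham, and the chain rose by 15.8%. Col1a1, which gives the pair of identical chains of type I collagen, was at 1240.7, 1214 and 1235 in BPVB and 959.9, 969 and 955 in sham and rose by 27.9%. Col1a2, which gives the remaining chain, was at 1129, 1110.2 and 1119 against 828, 851 and 817 and rose by 34.6% (log2 fold change 0.43 ± 0.022, limma adjusted p = 1.78e-06). The groups stood far apart for all 3 genes relative to their spread, with coefficients of variation between 0.451% and 2.07%. Together these chains were 72.9% ± 0.148 of the collagen FPKM in BPVB and 70.7% ± 0.196 in sham. They accounted for 944 of the net difference of 1113 FPKM in the family, or 84.8%. The other 41 genes summed to 1927 ± 14.4 in BPVB and 1758 ± 5.44 in sham, a ratio of 1.10.

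**Figure D2:**
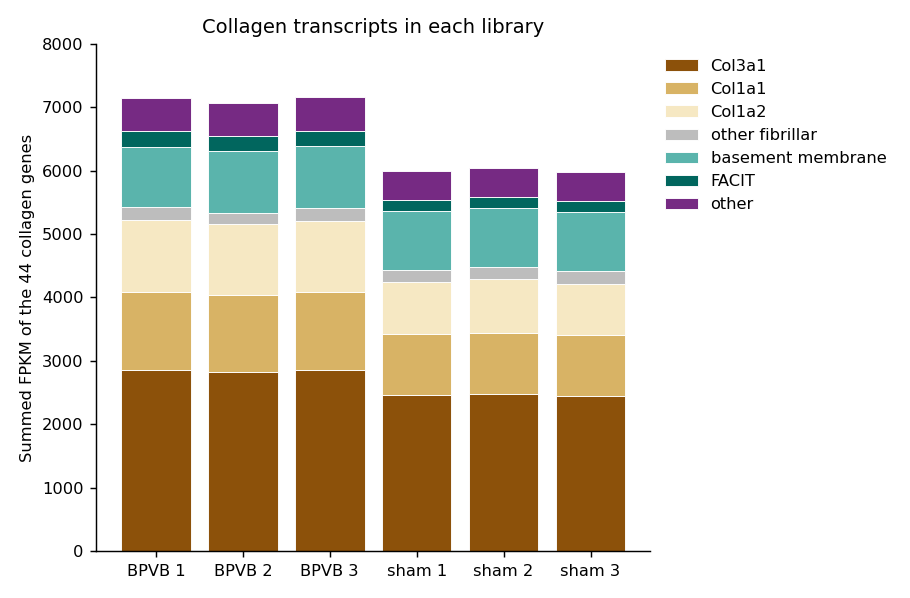
Summed FPKM of the 44 collagen genes in each library, stacked by gene or class. The BPVB bars reach 7070.1 to 7156 and the sham bars 5982 to 6049, and the segments of Col3a1, Col1a1 and Col1a2 differ most in height.

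The chains of type V collagen, which sits inside type I fibrils and limits their width, differed in their calls. Col5a2 was at 104, 97.3 and 104 in BPVB and 93.2, 94.9 and 91.8 in sham, and rose by 8.88% (adjusted p = 0.0290 in limma). That call was lost without BPVB rat 1 or 3 or sham rat 1 or 3 (adjusted p from 0.0742 to 0.0919), under median of ratios scaling (0.0662) and with the replicate number as a block (0.0508). Col5a1, the chain found in most type V molecules, was at 79.5, 75.1 and 75.5 in BPVB and 82.0, 80.0 and 81.0 in sham and did not pass the test (log2 fold change -0.08 ± 0.034, adjusted p = 0.120), although it was lower under median of ratios scaling (0.0418) and in limma-voom on fragments (0.0121). Col5a3, a less widely expressed chain, was at 13.0, 11.9 and 13.0 against 15.6, 15.6 and 15.0 and fell by 17.9% (adjusted p = 0.00736). The BPVB levels of Col5a2 and Col5a1 thus lay above and below sham respectively, and each gap was small beside those of type I.

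Among the minor fibrillar genes, Col11a1, a chain related to Col5a1 that is best known from cartilage, rose from a low level. It was at 1.49, 1.59 and 1.59 FPKM in BPVB and 0.846, 0.761 and 0.692 in sham, a ratio of 2.03 (limma adjusted p = 0.00216). Col24a1, a fibrillar chain with a role in bone, fell from 1.01 ± 0.171 to 0.407 ± 0.0321 (adjusted p = 0.00395). Col27a1, Col11a2 and Col2a1, the defining collagen of cartilage, gave no call: Col27a1 overlapped between the groups, Col11a2 was at 0.151 to 0.247 in BPVB and 0.285 to 0.619 in sham (adjusted p = 0.101, and 0.0124 in limma-voom on fragments), and Col2a1, at 1 to 6 fragments a library, was too low to test. Cartilage markers other than Chad were scarce. Of 10 such genes 5 were tested, Chad and Acan rose, and the list's sum of 101 to 108 in BPVB and 65.4 to 70.4 in sham was nearly all Chad, with Acan at 0.292 and 0.0494, Cnmd at 0 in all BPVB libraries and Matn1 not listed. Of the 10 fibrillar genes tested, 5 were higher, 2 were lower and 3 were not called (17.2% and 14.3% of all genes were higher and lower), and their class sum was 5389 ± 43.2 in BPVB and 4445 ± 36.7 in sham, a ratio of 1.21.

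In the basement membrane class the related genes Col18a1 and Col15a1 moved in opposite directions. Both encode collagens whose core proteins carry sugar side chains and whose end pieces can be released as endostatin and restin. Col18a1 was at 78.8, 78.2 and 77.5 FPKM in BPVB and 38.4, 41.9 and 40.4 in sham, a ratio of 1.95 (log2 fold change 0.95 ± 0.040, limma adjusted p = 5.67e-07). Col15a1 was at 122, 121 and 117 in BPVB and 187, 183 and 188 in sham, a ratio of 0.645 (-0.63 ± 0.028, adjusted p = 7.20e-07). All BPVB rats were therefore high for the one and low for the other. In absolute terms Col15a1 had the largest fall of the family, a difference of -66.0 FPKM out of -87.2 over all members with a lower mean. The FPKM ratio of Col18a1 to Col15a1 was 0.648, 0.648 and 0.660 in BPVB and 0.205, 0.229 and 0.215 in sham, 3.01 times as high in BPVB (exact permutation p = 0.1), a ratio chosen after the values were seen.

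The promoters of this pair are printed because the genes are related in product and opposite in change. The sequences are the 250 bases before the gene start in RefSeq (assembly GRCr8), both genes on the plus strand, Col18a1 at chr20:11473395-11473644 and Col15a1 at chr5:66297296-66297545. They are written 5′ to 3′ in lower case, and capitals mark a GC box (GGGCGG on either strand) or a CCAAT box (CCAAT on either strand).
Col18a1: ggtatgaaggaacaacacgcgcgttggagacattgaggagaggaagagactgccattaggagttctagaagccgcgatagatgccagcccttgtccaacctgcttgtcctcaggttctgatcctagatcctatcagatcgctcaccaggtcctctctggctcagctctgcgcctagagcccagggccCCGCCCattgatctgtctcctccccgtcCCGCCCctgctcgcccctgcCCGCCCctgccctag
Col15a1: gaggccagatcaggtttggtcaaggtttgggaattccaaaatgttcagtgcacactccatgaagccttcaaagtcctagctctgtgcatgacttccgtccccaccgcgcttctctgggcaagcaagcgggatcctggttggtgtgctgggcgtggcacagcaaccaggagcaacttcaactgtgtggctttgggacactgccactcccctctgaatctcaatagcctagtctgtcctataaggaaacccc
The Col18a1 window held 3 GC boxes close to the start, each read on the other strand, and the Col15a1 window held neither motif.

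No type IV chain was called lower. Col4a1 and Col4a2, which form the main type IV molecule of vessel walls, lie head to head on opposite strands. Col4a1 was at 363, 364 and 370.2 in BPVB and 339, 345 and 345 in sham and rose by 6.76% (limma adjusted p = 0.0124), a call lost without sham rat 1 (0.0506) and under median of ratios scaling (0.0630). Col4a2 was at 237, 239 and 247 against 234, 233 and 233 and did not pass the test (log2 fold change 0.05 ± 0.025, adjusted p = 0.187), although it was higher under TPM scaling (0.0346), quantile normalization (0.00494) and limma-voom (0.00362). The differences of this pair, a few percent each, were among the smallest of the abundant collagens. The 76 bases between the annotated starts of the pair (GRCr8, chr16:84885521-84885596, plus strand, the strand of Col4a1) are printed because both genes are read outward from them, with 1 GC box on the other strand in capitals.
Col4a2 to Col4a1: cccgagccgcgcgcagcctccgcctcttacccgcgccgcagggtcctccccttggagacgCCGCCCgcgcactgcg

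The X-linked pair of type IV chains gave a larger change. Col4a5, a chain of the basement membranes of kidney and of smooth muscle, was at 119, 119 and 126 in BPVB and 91.4, 91.7 and 91.3 in sham, a ratio of 1.33 (log2 fold change 0.41 ± 0.032, limma adjusted p = 2.21e-05). Col4a6, its partner in smooth muscle basement membranes, was at 16.2, 16.9 and 16.2 against 12.5, 11.3 and 12.4, a ratio of 1.36 (adjusted p = 6.42e-04). The ratio of Col4a5 to Col4a6 overlapped between the groups (7.38 ± 0.336 and 7.60 ± 0.459), whereas the ratio of Col4a5 to Col4a1 was 0.327 to 0.339 in BPVB and 0.265 to 0.270 in sham. Col4a3 and Col4a4, the chains that join Col4a5 in the basement membranes of the kidney glomerulus and the lung alveolus, gave no call. Col4a3 was at 15.1, 14.9 and 14.7 in BPVB and 14.5, 14.2 and 14.6 in sham (log2 fold change 0.05 ± 0.050, adjusted p = 0.531), and Col4a4 overlapped (9.42 ± 1.62 and 9.02 ± 0.427, adjusted p = 0.797). The alveolar epithelial markers other than Hopx were 5.82 to 10.7 times as high in BPVB, and their part in the type IV values was not tested. Of 8 basement membrane genes 4 were higher, 1 was lower and 3 were not called, where 17.2% of all genes were higher and 14.3% were lower. Their sum was 967 ± 7.91 in BPVB and 929 ± 4.48 in sham, a ratio of 1.04, or 1.09 for type IV chains alone, and the class made up 13.6% ± 0.0996 of collagen FPKM in BPVB and 15.5% ± 0.133 in sham.

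**Figure D3:**
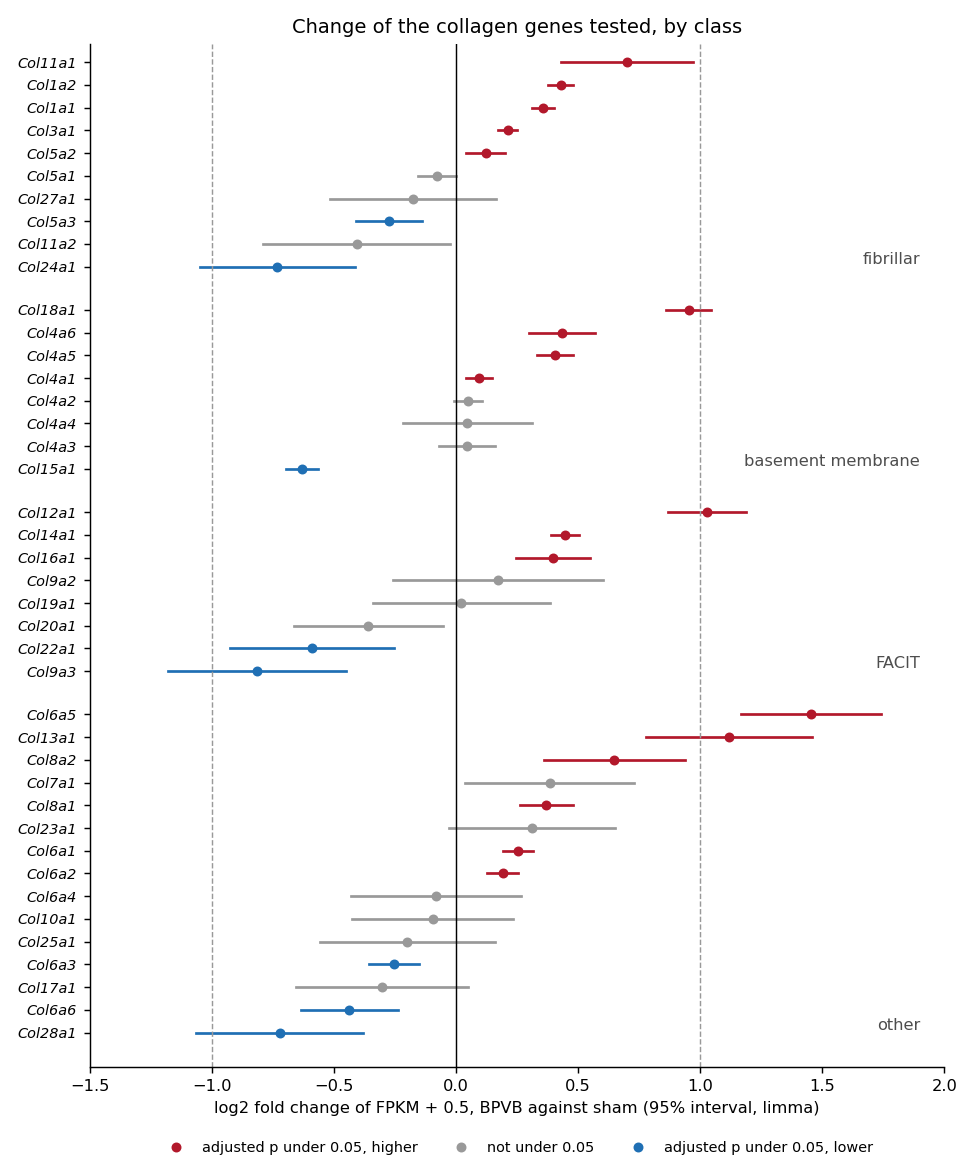
Log2 fold change of FPKM + 0.5 in BPVB against sham for the 41 collagen genes tested, by class, with 95% intervals from limma, dashed lines at a log2 fold change of 1 in either direction, and colour for the adjusted p. Red points (18 genes, higher) and blue points (8 genes, lower) occur in all 4 classes, and only Col6a5, Col13a1 and Col12a1 lie beyond a dashed line.

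The FACIT genes held the highest class ratio. Col14a1, which coats fibrils and takes part in regulating their width, was the most abundant at 209, 210.2 and 211 in BPVB and 152, 153 and 156 in sham, a ratio of 1.36 (log2 fold change 0.45 ± 0.025, limma adjusted p = 2.71e-06). Col12a1, a long fibril-associated chain linked to tissue under mechanical load, was at 18.1, 17.9 and 17.6 in BPVB and 9.02, 8.84 and 7.67 in sham, a ratio of 2.09 (1.03 ± 0.071, adjusted p = 9.84e-06). Without sham rat 3 its log2 fold change was 0.96 and it no longer passed the threshold of 1. Col16a1, a FACIT chain of several connective tissues, was at 10.7, 9.66 and 10.3 against 7.55, 7.58 and 7.72 (adjusted p = 0.00191). In all 3 genes every BPVB rat lay above every sham rat, where 45.6% of all genes tested did not overlap.

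The 2 FACIT genes that fell were weakly expressed. Col9a3, a chain of cartilage fibrils, was at 0.246 to 0.507 FPKM in BPVB and 0.965 to 1.24 in sham (17 to 40 against 61 to 78 fragments, limma adjusted p = 0.00461). Col22a1, known from tissue junctions such as those of muscle and tendon, was at 5 to 15 fragments in BPVB and 40 to 66 in sham (log2 fold change -0.59, adjusted p = 0.0148), a call lost without sham rat 1 (0.0592). With 0.1 in place of 0.5 added its log2 fold change was -1.49, and that of Col9a3 went from -0.82 to -1.26. Col20a1, Col9a2 and Col19a1 were not called, although Col20a1 was lower with quantile normalization (0.0287), without a filter on low values (0.0496) and in limma-voom (0.0316), and Col9a1, with 1 fragment in all BPVB and 1 in all sham libraries, was not tested. Of 8 FACIT genes tested 3 were higher, 2 were lower and 3 were not called, where 17.2% of all genes were higher and 14.3% were lower. The FACIT sum was 240 ± 0.531 in BPVB and 173 ± 1.38 in sham, a ratio of 1.39, and Col14a1 made up most of it.

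Among the other types, the chains of type VI collagen, the beaded filament that links basement membranes to the fibrils around them, changed in different directions. Col6a1 was at 237, 243 and 247 in BPVB and 204, 206 and 200 in sham and rose by 19.2% (limma adjusted p = 1.39e-04). Col6a2 was at 185, 186 and 188 against 161, 160 and 168 and rose by 14.1% (adjusted p = 0.00108). Col6a3, the large chain that joins those of Col6a1 and Col6a2 in the common type VI molecule, was at 46.3, 43.1 and 42.0 in BPVB and 52.4, 53.2 and 51.1 in sham and fell by 16.2% (adjusted p = 0.00254). The ratio of Col6a1 to Col6a2 overlapped between the groups (1.30 ± 0.0158 and 1.24 ± 0.0511), and the ratio of Col6a3 to Col6a1 was 0.170 to 0.195 in BPVB and 0.256 to 0.259 in sham.

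Col6a6 and Col6a5, which encode alternatives to the Col6a3 chain, lie next to each other with Col6a4 in RefSeq and moved apart. Col6a6 was at 4.59, 5.15 and 4.63 in BPVB and 6.47, 6.29 and 7.21 in sham and fell (log2 fold change -0.44 ± 0.088, limma adjusted p = 0.00529). Col6a5 had the largest log2 fold change of the 41 collagen genes tested, with 1.29, 1.35 and 1.20 FPKM in BPVB and 0.163, 0.141 and 0.143 in sham. These values rest on 292, 300 and 303 fragments against 33, 28 and 29, a ratio of 8.59 in FPKM (1.45 ± 0.126 on the scale with 0.5 added, adjusted p = 4.02e-05, and 2.47 with 0.1 added). Col6a4 did not pass the test at 28 to 56 fragments a library (adjusted p = 0.726). Reads that fit more than 1 of these related genes may have been assigned to either, and how they were assigned is not given in the sources used here. The promoter of Col6a5 (250 bases before the RefSeq start, GRCr8, chr8:115462845-115463094, minus strand, written along the gene) is printed because no other collagen gene rose as far. Its 1 CCAAT box is in capitals, and it held no GC box.
Col6a5: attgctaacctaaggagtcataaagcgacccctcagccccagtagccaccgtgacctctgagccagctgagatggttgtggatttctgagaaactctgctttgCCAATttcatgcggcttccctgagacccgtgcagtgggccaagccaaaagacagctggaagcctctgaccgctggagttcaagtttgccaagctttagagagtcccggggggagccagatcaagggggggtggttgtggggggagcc

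Both type VIII chains and 1 membrane collagen rose. Col8a1, a chain of the lattice-forming type VIII collagen made by vascular cells, was at 37.8, 41.6 and 41.3 in BPVB and 31.2, 31.4 and 30.4 in sham, a ratio of 1.30 (limma adjusted p = 4.03e-04). Col8a2, its partner, was at 2.96, 2.46 and 3.12 against 1.56, 1.86 and 1.48, a ratio of 1.74 (adjusted p = 0.00456). Col13a1, a membrane-bound collagen of cell adhesion sites, was at 1.35, 1.10 and 1.38 in BPVB and 0.309, 0.433 and 0.221 in sham, a ratio of 3.98 (log2 fold change 1.12 ± 0.149, adjusted p = 5.27e-04, and 1.73 with 0.1 in place of 0.5 added). The Col13a1 values rest on 164 to 235 fragments a library in BPVB and 30 to 58 in sham. For Col8a1, Col8a2 and Col13a1 the lowest BPVB rat exceeded the highest sham rat, where 45.6% of all genes tested did not overlap.

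Col28a1, a collagen known from the sheaths of peripheral nerves, fell. It was at 0.961, 0.973 and 0.872 FPKM in BPVB and 2.40, 1.57 and 1.71 in sham, a ratio of 0.494 (log2 fold change -0.72 ± 0.150, limma adjusted p = 0.00627). Every BPVB rat lay below every sham rat. The remaining genes of the class had no call. Col17a1 of epithelial hemidesmosomes, Col7a1 of anchoring fibrils, Col23a1 and Col25a1 of cell membranes and Col10a1 of growth-plate cartilage had adjusted p-values from 0.0878 to 0.661, of which Col7a1 passed in limma-voom (0.0146) and without a filter (0.0456), and Col26a1, with 1 fragment in all BPVB and 14 in all sham libraries, was not tested. Of the 15 genes of other types tested, 6 were higher, 3 were lower and 6 were not called (all genes 17.2% and 14.3%), and the class sum was 526 ± 6.33 in BPVB and 463 ± 0.958 in sham, a ratio of 1.14.

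Ratios between chains were compared within libraries, since the chains of 1 collagen type are built into common molecules and a factor common to all genes of a library leaves such a ratio unchanged. Of 17 pairs listed, 14 had both chains at a mean FPKM of at least 1. In 10 of these the groups did not overlap (exact permutation p = 0.1 for each). Adjustment over the 14 pairs gave 0.14, so that none could pass 0.05. The share without overlap among pairs of other genes was not computed, and several of the pairs share Col1a1. Of all single genes tested 45.6% did not overlap, or 57.3% where FPKM averaged 10 or more. The ratio of Col1a1 to Col1a2 was 1.10, 1.09 and 1.10 in BPVB and 1.16, 1.14 and 1.17 in sham. That of Col3a1 to Col1a1 was 2.30, 2.33 and 2.31 against 2.56, 2.55 and 2.56. The libraries of a group lay close together in both ratios.

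Minor components were also set against the type I chain Col1a1. Col5a1 to Col1a1 was 0.0611 to 0.0641 in BPVB and 0.0825 to 0.0854 in sham, and Col12a1 to Col1a1 was 0.0142 to 0.0147 against 0.00803 to 0.00940. Col14a1 to Col1a1 was 0.169 to 0.173 against 0.158 to 0.164. Relative to Col1a1, Col5a1 was thus lower in every banded vein, and Col12a1 and Col14a1 were higher. Ratios to Col1a2 were not computed. Col14a1 rose by 36.5%, beside 34.6% for Col1a2 and 27.9% for Col1a1. Within type V, Col5a1 to Col5a2 was 0.756 ± 0.0236 against 0.869 ± 0.0227 and Col5a3 to Col5a1 was 0.165 ± 0.00723 against 0.190 ± 0.00548. The ratio of Col4a1 to Col4a2 was 1.52 ± 0.0156 in BPVB and 1.47 ± 0.0169 in sham. The pairs Col4a3 with Col4a4, Col4a5 with Col4a6, Col6a1 with Col6a2 and Col8a1 with Col8a2 overlapped.

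**Figure D4:**
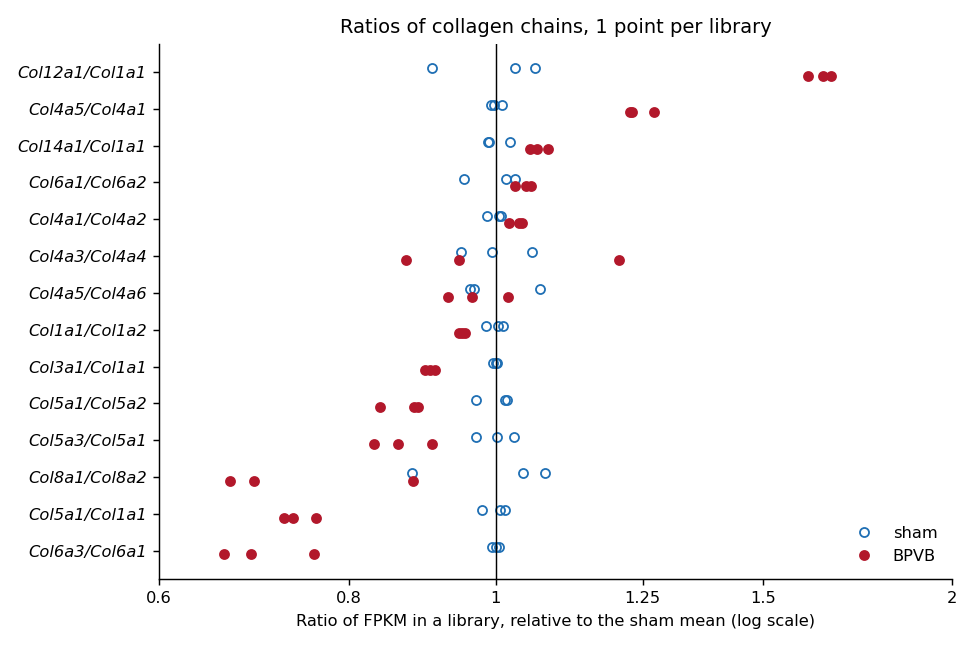
FPKM ratio of 14 pairs of collagen chains in each library, divided by the mean of the sham libraries, on a log axis, with filled points for BPVB and open points for sham. The 3 BPVB points of Col12a1/Col1a1 lie furthest above 1 and those of Col6a3/Col6a1 and Col5a1/Col1a1 lie below every sham point, whereas the points of 4 pairs overlap.

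Promoter windows were missing for Col3a1 and Col1a1, the most abundant of the family, and for Col2a1, Col6a2, Col9a3, Col12a1, Col14a1, Col22a1 and Col25a1. They were given for 35 of the 44 genes, and the shares below are of these 35 genes. In the 250 bases before the start, the GC box was found in 19 of them (54.3%), beside 32.4% of 27457 genes, and the CCAAT box in 11 (31.4%), beside 34.3%. A TATA box (TATAAA on either strand) was found in 4 (11.4%), those of Col17a1, Col1a2, Col13a1 and Col10a1, beside 13.1%. An AP-1 motif (TGANTCA on either strand) was found in 1, that of Col6a1, or 2.86% beside 6.36%. Motifs were counted separately, whether or not matches overlapped. The windows of collagen genes were rich in G and C (median 58.8%, beside 52% over all genes), and the letters alone do not show that a factor binds.

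The genes that modify, fold and export collagen went in both directions, as did genes at large (17.2% higher and 14.3% lower). Of 18 genes for folding and modification tested, 4 were higher, 7 were lower and 7 were not called, with a median log2 fold change of -0.11 beside 0.02 over all genes (Crtap was not listed). The lysyl hydroxylase Plod2, whose product directs a hydroxylysine type of cross-link, rose from 28.9 ± 0.489 to 44.5 ± 1.21 (limma adjusted p = 6.41e-06), and P4ha3, Plod3 and P3h3 rose as well. The largest fall was that of Colgalt2, a galactosyltransferase for hydroxylysine, with a log2 fold change of -0.54 (adjusted p = 0.00973). The chaperone Serpinh1 was at 396, 393 and 397 in BPVB and 431, 432 and 455 in sham and fell by 10.0% (adjusted p = 0.00278). Of 5 genes for export and transcript regulation, Creb3l1, a membrane-bound transcription factor of the secretory pathway, rose (0.36, adjusted p = 0.0275), and Kdelr2 and Larp6 fell. Larp6, which binds a stem-loop of type I collagen transcripts, was at 0.787 ± 0.301 in BPVB and 2.28 ± 0.286 in sham (-1.13 ± 0.180, adjusted p = 0.00150).

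Among genes of extracellular processing and cross-linking, 5 rose and 1 fell, to be read beside the 17.2% and 14.3% of all genes. Of 6 propeptide processing genes tested, 2 were higher, 1 was lower and 3 were not called (Pcolce2 was not listed). Pcolce, which enhances removal of the C-terminal propeptide, rose from 78.1 ± 1.66 to 99.2 ± 4.88 (limma adjusted p = 2.85e-04) and Adamts2 rose by 12.9%, whereas the protease Tll1 fell (log2 fold change -0.50, adjusted p = 0.0102) and Bmp1 was not called (28.3 ± 2.44 against 28.3 ± 1.67). Of 6 cross-linking genes 3 were higher, none was lower and 3 were not called. Lox, the lysyl oxidase that starts cross-links between fibrillar chains, was at 80.1, 79.2 and 76.9 in BPVB and 38.8, 41.0 and 38.3 in sham and rose by 100.1% (log2 fold change 0.99 ± 0.039, adjusted p = 3.82e-07). Loxl1 rose by 24.7% and Tgm2 by 7.86%. The spread within each group was small beside the gap for Lox, and its relative rise exceeded that of each type I and type III chain.

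Degradation genes and receptors also divided, and these short lists are likewise read beside 17.2% higher and 14.3% lower over all genes. Of 8 collagen degradation genes tested, 4 were higher, 2 were lower and 2 were not called. Mmp14, a membrane-bound collagenase, was at 90.6, 86.5 and 91.5 in BPVB and 47.5, 48.2 and 48.0 in sham, a ratio of 1.87 (log2 fold change 0.90 ± 0.035, limma adjusted p = 3.59e-07), and Mmp2, Ctsk and Fap rose as well. Mmp15, a related membrane protease, fell by 11.6% (adjusted p = 0.0157), and the neutrophil collagenase Mmp8 fell, with 2 to 15 fragments a library in BPVB and 32 to 47 in sham. Of 10 collagen receptors tested 3 were higher, 3 were lower and 4 were not called. Ddr1, a collagen-activated tyrosine kinase, rose from 11.2 ± 0.828 to 14.9 ± 0.656 (adjusted p = 0.00210), as did Mrc2 and the shared integrin chain Itgb1, while Adgrg1, an adhesion receptor that binds type III collagen, fell from 33.2 ± 1.66 to 26.4 ± 0.0190 (adjusted p = 8.31e-04), as did Ddr2 and Itga1. The macrophage and alveolar markers given above also differed between the groups, and their part in these values was not tested.

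**Figure D5:**
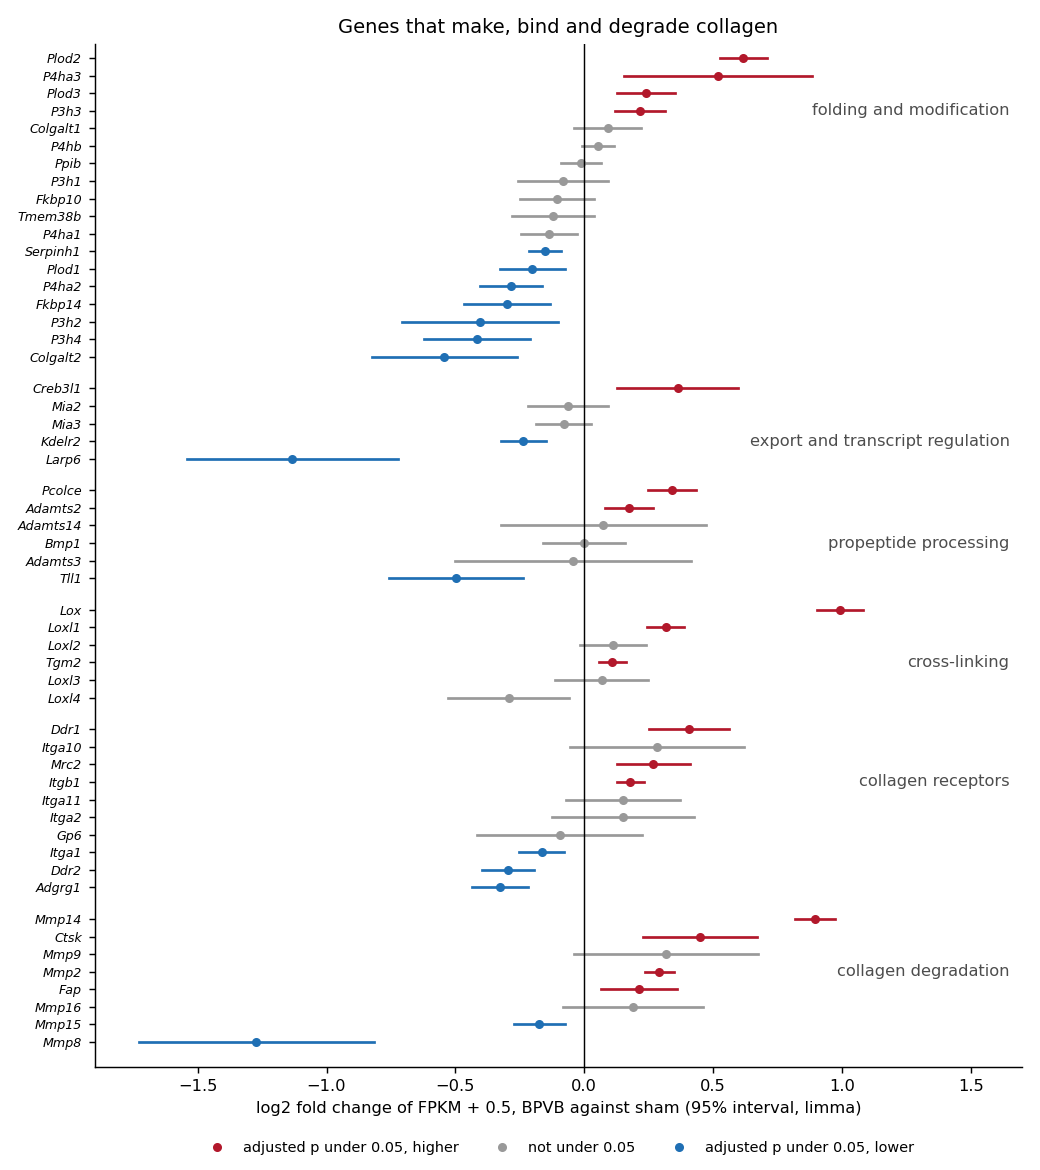
Log2 fold change of FPKM + 0.5 in BPVB against sham for genes that modify, export, process, cross-link, bind or degrade collagen, with 95% intervals from limma and colour for the adjusted p. Lox (0.99) and Mmp14 (0.90) lie furthest to the right, Mmp8 and Larp6 lie furthest to the left, and both colours occur in every list but that of cross-linking.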

How the data were processed

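Bulk PV tissue of 3 BPVB and 3 sham rats was compared. Per the paper, the authors used fastp for trimming, HISAT for mapping and HTSeq-count for counting, and they deposited 1 FPKM value per gene and rat. The submitters' notes name HISAT2 2.0.5, StringTie 1.3.3b, featureCounts 1.5.0-p3 and DESeq2 1.20.0. The paper and the labels name different library kits (VAHTS Universal V6, NEBNext Ultra). The genome build and strand setting are not given in the sources used here, so reads of overlapping genes on opposite strands cannot be told apart. Columns were matched to rats by group initial and replicate number.

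Whole fragments behind the FPKM were recovered for 100% of genes from their whole-number ratios, giving the library totals (whole meant within 1e-06 fragments of a whole number in every library). Each is the smallest number the values allow, and a count of 0 still allows 3 fragments. Fragments may include PCR copies, so this covers counting error only.

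The comparison used limma 3.58.1 in R 4.3.3 (lmFit, eBayes with trend) on log2(FPKM + 0.5), two-sided, for genes whose FPKM averaged 0.1 or more, and Benjamini-Hochberg adjustment. The limma-voom alternative used at least 10 fragments in all libraries together. Sums and ratios were compared by exact permutation in Python 3.11.15 (numpy 2.4.6, scipy 1.17.1, pandas 2.3.3). The fragment recovery and the limma fit were tested on simulated data. Members and lists were chosen with earlier results of these data known. Values by library are given for collagen genes whose FPKM averaged 10 or more, or called with an absolute log2 fold change above 0.5 and a mean of at least 1. Each pathway list names its largest rise and fall at a mean of at least 1. Other genes, and the ratios of Col18a1 to Col15a1 and of Lox, Serpinh1, Mmp14 and Col6a5 to collagen chains, were named after their values were seen. All 44 members matched RefSeq by NCBI Gene number. Col21a1 was not among the genes listed. Alternatives were 2 pseudocounts, 2 filters, 3 scalings, a replicate block, robust eBayes, limma-voom and leaving out each library. Replicates are separate rats. The markers of 1 cell type are not reported here.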

Additional observations from a re-analysis of the deposited data

How the results depend on the processing

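Of the 26 collagen genes called, 23 kept their call in every setting in which they were tested, and Col5a2, Col4a1 and Col22a1 did not. With a filter at a mean FPKM of 1, which tests 27 collagen genes, 5 were lower and 1 passed the fold threshold upward. Past that threshold, limma-voom gave 5 higher and 4 lower, a pseudocount of 0.1 gave 3 lower, and a pseudocount of 1 gave 0 higher. The pseudocount sets how much of a low gene's change remains. Leaving out 1 library gave 16 to 18 collagen genes higher, 7 to 8 lower, 2 to 3 past the fold threshold upward and 0 downward, and 2166 to 2232 genes higher and 1751 to 1905 lower among all genes. The sums of the classes, relative to sham, ranged from 1.18 to 1.19 over all collagen genes, 1.21 to 1.22 for fibrillar, 1.04 to 1.04 for basement membrane, 1.38 to 1.39 for FACIT and 1.13 to 1.14 for other types without 1 library. Scaling moved them further: between median of ratios and TPM scaling they were 1.16 and 1.21, 1.19 and 1.24, 1.02 and 1.06, 1.36 and 1.42, and 1.12 and 1.16, in the same order. Uncalled differences that changed sign were those of Col19a1 (-0.062 with quantile normalization, -0.029 without BPVB rat 1, -0.10 without sham rat 3, and -0.10 to 0.13 over all leave-one-out fits) and Col4a4 (-0.046 without BPVB rat 2, and -0.046 to 0.19). The log2 ratio of Col4a3 to Col4a4 changed sign without BPVB rat 1 (0.038), BPVB rat 2 (0.096) or sham rat 1 (0.039), within -0.14 to 0.096, and that of Col4a5 to Col4a6 without sham rat 2 (0.0084), within -0.076 to 0.0084. These differences were within their spread, and the cause was not tested. Deviations of same-numbered rats were nearly uncorrelated (0.025, 0.014 and 0.015, beside -0.022 to 0.0060 for the other pairs of rats). Such values cannot show whether same-numbered rats shared a litter, an operation day or a batch. With the replicate number as a block, 17 collagen genes were higher and 8 lower, and Col5a2 alone lost its call (adjusted p = 0.051). Across scalings the median log2 fold change of all genes lay between -0.01 and 0.05. With 3 rats a group, an exact test cannot go below 0.1, and at 0 to 10 fragments a library Col9a1, Col26a1 and Col2a1 were too shallow to compare.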

Other observations

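The abundant collagen genes varied little between rats. Among genes whose FPKM averaged 10 or more, the median coefficient of variation of the 19 collagen genes was 1.81% in BPVB (range 0.324% to 5.25%) and 1.49% in sham (0.246% to 8.61%), beside 4.22% (0.0719% to 56.5%) and 4.03% (0.0583% to 84.6%) over 5947 genes, which were not matched for level. Weakly expressed members could vary far more, as Col9a2 did (10.5% in BPVB and 73.9% in sham).

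Several genes that act on collagen changed relative to Col1a1 within each library, in ratios chosen after the values were seen. The FPKM ratio of Lox to Col1a1 was 0.0622 to 0.0653 in BPVB and 0.0401 to 0.0423 in sham, and that of Mmp14 to Col1a1 was 0.0713 to 0.0740 against 0.0494 to 0.0502. That of the chaperone Serpinh1 to Col1a1 was 0.319 to 0.323 against 0.446 to 0.476. Between the neighbouring genes Col6a5 and Col6a6 the ratio was 0.259 to 0.280 in BPVB and 0.0199 to 0.0252 in sham, 11.9 times as high in BPVB. The groups did not overlap in any of these 4 ratios (exact permutation test, p = 0.1, the smallest p possible). Since the ratios were chosen on these values, neither the separation nor the p adds support, and the share among other pairs was not computed.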
